A study of Mus musculus with 27 samples.

Results

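The neurotrophin and cytokine receptor genes are 8 genes picked by name: the ligand genes Bdnf, Ntf3 and Lif, the neurotrophin receptor genes Ntrk2, Ntrk3 and Ngfr, and the cytokine receptor genes Cntfr and Lifr. All 8 were found among the 38168 features of the expression table, each as a single row. The study profiled whole retinas of wild type C57BL/6J mice, an inbred strain, by RNA-seq in 27 libraries to follow thyroid hormone receptor isoforms through retinal development. There were 3 libraries at embryonic day 14 (E14), 3 at E17, 4 at postnatal day 1 (P1), 3 at P6, 4 at P15, 4 at P28 and 6 at P60, with no treatment at any age. Most libraries were pools of several animals, but at P60 the methods describe 2 pools and 4 single mice, and which library is which was not given in the sources used here. Embryos and P1 pups were of mixed sex and older mice were males, so sex and age cannot be told apart across P1 and P6. Levels are given in CPM, the reads of a gene scaled to a fixed library total, and 1 read was worth 0.0882 to 0.141 CPM at the depth of 7077781 to 11332323 reads per library.

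Neurotrophins are secreted survival and growth factors that bind Trk receptor tyrosine kinases and a shared co-receptor, p75, encoded by Ngfr. BDNF acts through TrkB, the product of Ntrk2, and NT-3, the product of Ntf3, acts mainly through TrkC, the product of Ntrk3. CNTF and LIF are cytokines of the IL-6 family: CNTF binds the CNTFR subunit, which joins LIFR and the shared chain gp130, encoded by Il6st, while LIF binds LIFR and gp130 without CNTFR. The cytokine receptors signal through JAK kinases to STAT3. In the retina BDNF and its receptor are best known for the survival and branching of ganglion cells, and LIF and CNTF for photoreceptor survival after injury and for arresting rod maturation in culture.

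The labelled tissue was checked against cell type markers, as summed CPM of each marker list. The 8 rod markers summed to 22.2 to 30.9 CPM in the embryonic libraries and to 25356 to 32074 CPM at P28 and P60, while the 10 progenitor markers summed to 5006 to 5863 CPM up to P1 and to 219 to 298 CPM from P15. Of other cells the dissection could hold, 8 microglia markers summed to 12.9 to 27.6 CPM and the 6 listed blood markers to 10.7 to 50.3 CPM. The 4 listed lens markers summed to 1.83 to 7.48 CPM and 10 markers of the retinal pigmented epithelium (RPE) to 7.70 to 90.7 CPM. The 7 astrocyte markers summed to 22.3 to 142 CPM and the 9 vessel and pericyte markers to 165 to 501 CPM. In embryonic libraries the vessel sum, at 167 to 345 CPM, was above that of the rod markers. Defining markers at 0 in all libraries of an age were Fgf15 of the progenitor list at P28, Chat of the amacrine list at E14, Tie1 of the vessel list at E17 and Mlana of the RPE list at P15, while Cryaa of the lens list and Hba-a2 and Hbb-y of the blood list were at 0 at one age or more. In whole retina, fewer cells of a type and less RNA per cell cannot be told apart, and the part of these shifts in the results was not tested.

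The receptors changed in opposite directions between embryonic retina (E14 and E17, 6 libraries) and mature retina (P15, P28 and P60, 14 libraries). Of the 8 genes, 6 passed the filter of at least 1 CPM in at least 3 libraries, and Ntf3 and Lif did not. In limma fitted to all 31760 features that passed, with Benjamini-Hochberg adjustment over all of them, 5 of the 6 changed at an adjusted p under 0.05. Lifr, Ntrk3 and Ntrk2 rose and Cntfr and Ngfr fell, while Bdnf did not pass. The same test called 75.4% of all features, with 35.0% higher and 40.4% lower in mature retina, so 5 of 6 called is near the background. In edgeR with its own scaling the split turned, with 12392 features higher and 11670 lower. The median difference over the 6 was 0.31 on the log2(CPM + 1) scale, against -0.06 over all features tested (0.038 in edgeR). The groups of libraries did not overlap for 4 of the 6 genes (Lifr, Ntrk2 and Ntrk3 higher, Cntfr lower), and for 40.4% of all features. An F test over the 7 ages called 6 of 6 genes and 83.0% of all features.

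**Figure D1:**
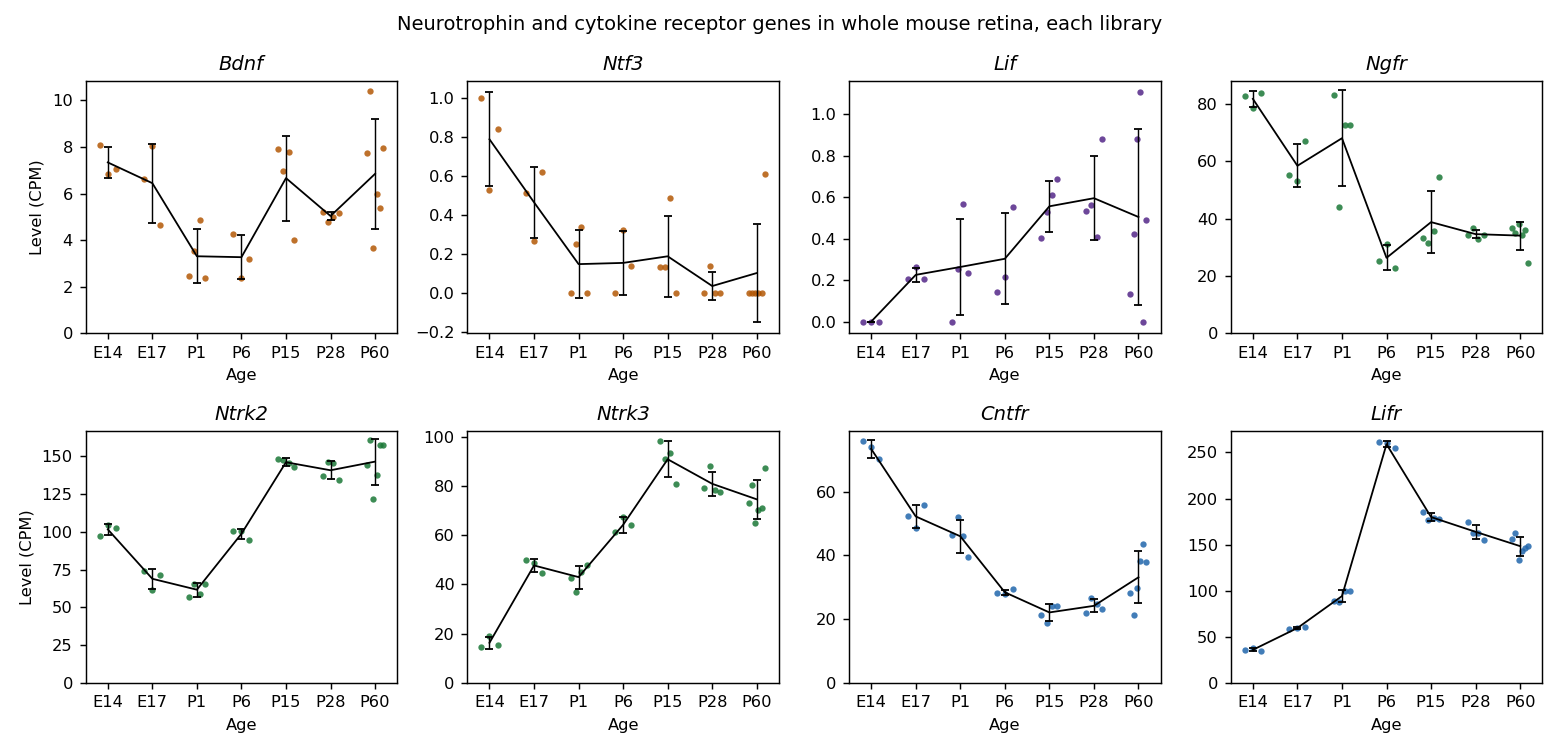
Levels of the 8 genes in whole retina in CPM at each age, with one dot per library and the black line and bars giving the mean ± SD (3 to 6 libraries per age). Lifr peaks at P6 at a mean of 259 CPM, Ntrk3 is lowest at E14 at 16.3 CPM, Ngfr and Cntfr are highest at E14, and Ntf3 and Lif stay near 1 CPM or below, so that the error bars of Ntf3 run below 0.

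To show the DNA at the starts of genes that moved in opposite ways, the stretch directly before the RefSeq start is given for Lifr and Ntrk2, which rose, and Ngfr, which fell. The RefSeq start used for Lifr lies inside the span that GENCODE gives the gene, and is the first of 2 that the table lists. All are 5′ to 3′ on the gene's strand, from the RefSeq table for GRCm38.p6, and capitals mark matches on either strand to the GC box GGGCGG or the nuclear receptor half-site AGGTCA. The other motif searched, TAATCC, a site read by OTX and CRX homeodomains, had no match in them.
Lifr, chr15:7129322-7129571, plus strand: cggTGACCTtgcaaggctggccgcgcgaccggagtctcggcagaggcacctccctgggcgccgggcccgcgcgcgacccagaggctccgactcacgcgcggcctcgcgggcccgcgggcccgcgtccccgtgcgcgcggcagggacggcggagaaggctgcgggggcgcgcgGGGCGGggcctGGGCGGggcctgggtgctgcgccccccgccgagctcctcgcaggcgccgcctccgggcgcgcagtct
Ntrk2, chr13:58806319-58806568, plus strand: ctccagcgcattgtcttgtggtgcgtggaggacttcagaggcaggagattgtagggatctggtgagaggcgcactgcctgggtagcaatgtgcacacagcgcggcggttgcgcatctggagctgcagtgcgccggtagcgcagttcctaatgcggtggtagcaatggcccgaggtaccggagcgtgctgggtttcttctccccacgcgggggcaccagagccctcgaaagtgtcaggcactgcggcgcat
Ngfr, chr11:95587699-95587948, minus strand: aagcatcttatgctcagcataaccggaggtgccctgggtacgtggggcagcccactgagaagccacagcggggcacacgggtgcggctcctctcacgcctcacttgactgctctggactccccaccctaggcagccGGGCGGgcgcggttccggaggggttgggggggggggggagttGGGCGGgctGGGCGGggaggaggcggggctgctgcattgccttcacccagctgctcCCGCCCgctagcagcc
The Lifr stretch holds 2 GC boxes and 1 half-site and is 82.4% G and C, the Ngfr stretch holds 4 GC boxes at 70.4%, and the Ntrk2 stretch holds none of the motifs at 62.8%. Over all 32851 promoters of the table the median was 52.4%, and 32.7% held a GC box, 14.0% the half-site and 6.25% TAATCC. Of the 20 promoters listed for 7 of the 8 genes, none held TAATCC. The stretch of the other Lifr start held none of the 3 motifs. These matches describe letters only, and say nothing of whether a factor binds.

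Lifr, the signaling receptor subunit shared by LIF and CNTF (Gene ID 16880, chr15:7090614-7197489, plus strand, GRCm38), had the widest course of the 6 genes tested. Its 3 libraries at E14 held 35.2, 37.4 and 34.6 CPM and those at E17 held 58.5, 59.4 and 60.5 CPM. The 4 libraries at P1 held 88.7, 88.1, 99.5 and 100.1 CPM and the 3 at P6 held 262, 259.8 and 255 CPM. Each of these ages lay wholly above the one before, and the P6 libraries were the highest of all 27. The level was then lower, at 186, 176, 179 and 178 CPM at P15, 174, 163, 163 and 155 CPM at P28, and 133 to 162 CPM with a median of 147 CPM at P60. All 14 mature libraries were above all 6 embryonic ones, and mature retina exceeded embryonic retina by 1.80 (SE 0.046) on the log2 scale, with an adjusted p of 5.6e-26 in limma. By steps, the log2 difference was 0.72 at E17 over E14, 0.65 at P1 over E17 and 1.45 from P1 to P6, and then it fell by 0.52 from P6 to P15, each past the threshold (largest adjusted p 6.2e-07, limma). The later steps, at -0.13 and -0.14, did not pass. Across both of them, P60 was below P15 by a log2 difference of -0.28 (adjusted p 0.0010, limma), with no overlap of the libraries. From the highest age to the lowest, P6, P15, P28, P60, P1, E17 and E14, only the neighbours P15 and P28 (adjusted p 0.35) and the neighbours P28 and P60 (0.10) did not pass in limma, although the P15 libraries all lay above those of P28.

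The feature whose course across the 27 libraries was most like that of Lifr was Crx, a homeobox gene of photoreceptors, with a Pearson r of 0.991 on the log2(CPM + 1) scale. It was followed by Impg2, which encodes a proteoglycan of the matrix around photoreceptors, at 0.986, and Zfp385b at 0.986. These r values are descriptions over libraries that share 7 ages and one scaling, and were searched for among 10999 features with a Gene ID and a mean of at least 10 CPM.

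Cntfr, the subunit that gives the receptor its affinity for CNTF (Gene ID 12804, chr4:41657498-41697089, minus strand), ran the other way. It was at 76.0, 73.9 and 70.4 CPM at E14 and at 52.2, 48.6 and 55.9 CPM at E17. The libraries at P1 held 46.5, 52.1, 46.1 and 39.4 CPM, and those at P6 held 28.1, 27.8 and 29.4 CPM. At P15 the level was 21.3, 18.8, 24.1 and 24.2 CPM. The E14 libraries were the highest of all and the P15 libraries lay below all those of P6. At P28 it was 22.0, 26.7, 24.8 and 23.3 CPM, and at P60 it ran from 21.3 to 43.5 CPM with a median of 33.8 CPM. Mature retina was lower by a log2 difference of -1.23 (SE 0.096, adjusted p 4.9e-13, limma), with no overlap of the groups. The step from P1 to P6, at -0.67, passed with an adjusted p of 0.00054, and the step from E14 to E17, at -0.49, passed narrowly at 0.048 in limma. That call was lost on leaving out any library of E14, E17, P6 or P28, P1 replicate 1 or 3 or P15 replicate 1 or 3 (adjusted p 0.053 to 0.18). It was also lost under a pseudocount of 0.1 or no filter (adjusted p 0.055 in both). Over all 36 alternatives its adjusted p ran from 1.2e-06 to 0.18 (limma or edgeR). The step from P6 to P15, at -0.36, did not pass (adjusted p 0.068, limma), but passed without P60 replicate 2 (0.022) or 5 (0.044) and in a fit of the 2 ages alone (0.014).

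At P60, 5 of 6 libraries held more Cntfr than the highest P28 library, and the log2 difference from P28 to P60 of 0.41 had an adjusted p of 0.035 in limma. Over all features this step called 12.9%, with 4.80% (1524 features) higher and 8.11% (2576) lower at P60, or 2118 higher and 1363 lower in edgeR with its own scaling. The count for this step was unsteady, at 1513 to 7517 features on leaving out a library of P28 or P60 and 23 when the fit held the 2 ages alone. Cntfr was the 1 gene of 6 called there. The call was lost when the fit held the 2 ages alone (adjusted p 0.21), or without any one P28 library or replicate 4, 5 or 6 of P60 (adjusted p 0.055 to 0.11, limma). Against P15, Cntfr at P60 was higher by a log2 difference of 0.53 (adjusted p 0.0025, limma), though the libraries overlapped. The genes closest to Cntfr in course were Gars at a Pearson r of 0.960, Pak4 at 0.960 and Mybbp1a at 0.956.

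Ngfr, the p75 co-receptor that binds all neurotrophins (Gene ID 18053, chr11:95568818-95587735, minus strand), was at 82.9, 78.6 and 84.1 CPM at E14 and 55.4, 53.0 and 67.0 CPM at E17. At P1 the libraries held 83.2, 44.0, 72.6 and 72.7 CPM, with replicate 2 apart from the others. The level at P6 was 25.1, 31.1 and 22.6 CPM, below every earlier library. It was 33.3, 31.5, 35.7 and 54.7 CPM at P15, 34.2, 36.6, 33.0 and 34.4 CPM at P28, and 24.5 to 38.0 CPM with a median of 35.5 CPM at P60. Ngfr was lower in mature than in embryonic retina by a log2 difference of -0.95 (SE 0.11, adjusted p 4.1e-09, limma). The groups overlapped through 1 library: 13 of 14 mature libraries lay below the lowest embryonic library, at 53.0 CPM, and P15 replicate 4 was above it. Without that library the highest mature level was 38.0 CPM and the difference was -1.004. The same library held 1409 CPM of summed ganglion cell markers against 1061 to 1105 CPM in the other P15 libraries. It was also highest of P15 for Müller glia markers (1706 against 1514 to 1555 CPM) and vessel markers (282 against 245 to 254 CPM). The same held for amacrine, rod, progenitor, microglia, lens and blood markers, but not for cone, astrocyte or RPE markers. The part of any of these cells in its Ngfr level was not tested.

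Ngfr fell between P1 and P6, with a log2 difference of -1.31 (adjusted p 1.8e-07, limma). The low P1 library, replicate 2, also held the least of the summed vessel and pericyte markers, at 431 CPM against 485 to 501 CPM in the other P1 libraries. Its sums of ganglion cell, amacrine, cone, astrocyte, RPE and lens markers were the lowest of P1 as well. The part of any of these cells in its Ngfr level was not tested. A partial return from P6 to P15, at 0.52, had an adjusted p of 0.019 in limma. That call was lost without P15 replicate 4 (0.35, adjusted p 0.11), without P6 replicate 1 (adjusted p 0.061) and without P6 replicate 3 (adjusted p 0.11). The step from E14 to E17 was -0.49 and did not pass (adjusted p 0.097, limma), though it passed without the low library P1 replicate 2 (adjusted p 0.043) and in a fit of E14 and E17 alone (3.2e-06). Genes most like Ngfr in course were Tbc1d1 at a Pearson r of 0.912, Pola1, a DNA polymerase subunit, at 0.908, and Dock1 at 0.902.

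Ntrk2, which encodes the BDNF receptor TrkB (Gene ID 18212, chr13:58806569-59133970, plus strand), was lower around birth than at E14 and then climbed. It held 97.4, 105 and 103 CPM at E14, 74.0, 61.3 and 71.3 CPM at E17, and 56.8, 65.4, 58.7 and 65.8 CPM at P1. At P6 the libraries were back at 101, 101 and 94.9 CPM. At P15 they held 148, 148, 146 and 143 CPM, at P28 137, 146, 145 and 135 CPM, and at P60 122 to 161 CPM with a median of 151 CPM. Every mature library was above every earlier one. The log2 difference was -0.56 from E14 to E17, 0.67 from P1 to P6 and 0.56 from P6 to P15, with adjusted p of 3.7e-05, 1.1e-07 and 4.4e-06 in limma. Mature retina exceeded embryonic retina by 0.78 (SE 0.055, adjusted p 3.7e-14, limma). In the order of ages, P60, P15 and P28 did not differ among themselves beyond their spread, nor did E14 and P6 (adjusted p 0.73), nor E17 and P1 (0.33, limma). Nfasc, a neuronal adhesion molecule of the axon, had the most similar course with a Pearson r of 0.972, then Chst2 at 0.966 and Tigar at 0.957.

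Ntrk3, which encodes the NT-3 receptor TrkC (Gene ID 18213, chr7:78175959-78738012, minus strand), started low and rose early. It was at 14.5, 19.1 and 15.3 CPM at E14 and at 49.8, 48.6 and 44.8 CPM at E17, a log2 difference of 1.504 (SE 0.11, adjusted p 6.5e-12, limma). At P1 it was 42.6, 36.8, 44.9 and 47.8 CPM, which overlapped E17, and at P6 it was 61.2, 67.6 and 64.1 CPM. At P15 it was 98.2, 91.1, 93.7 and 80.8 CPM, at P28 79.3, 88.3, 78.6 and 77.7 CPM, and at P60 65.1 to 87.5 CPM with a median of 72.2 CPM. The steps from P1 to P6, at 0.57, and from P6 to P15, at 0.49, passed with adjusted p of 4.1e-05 and 0.00042 in limma. Mature retina exceeded embryonic retina by 1.52 (SE 0.067, adjusted p 2.2e-19, limma), with every mature library above every embryonic one. The mean order was P15, P28, P60, P6, E17, P1 and E14, where P6 differed from E17 (adjusted p 0.0026) and P1 from E14 (4.7e-12), and the other neighbours did not differ beyond their spread (limma). Beyond neighbours, P60 was below P15 by a log2 difference of -0.28 (adjusted p 0.017, limma), though the libraries overlapped. Closest in course were Gpr26 at a Pearson r of 0.975, Calb2, the calretinin gene of amacrine and ganglion cells, at 0.967, and Mdga2 at 0.966. Calb2 was itself one of the amacrine markers, whose sum was 170 to 191 CPM at E14 and 730 to 796 CPM at E17. That sum was higher still at P1, at 1110 to 1220 CPM, where Ntrk3 did not rise. It was lower at P6, at 824 to 898 CPM, where Ntrk3 rose. The sum and Ntrk3 both rose from P6 to P15, and the medians of both were lower at P28 and again at P60. The part of amacrine cells in the Ntrk3 level was not tested. Both Ntrk2 and Ntrk3 are known to make full-length and truncated receptors, and the gene-level rows cannot tell these apart.

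**Figure D2:**
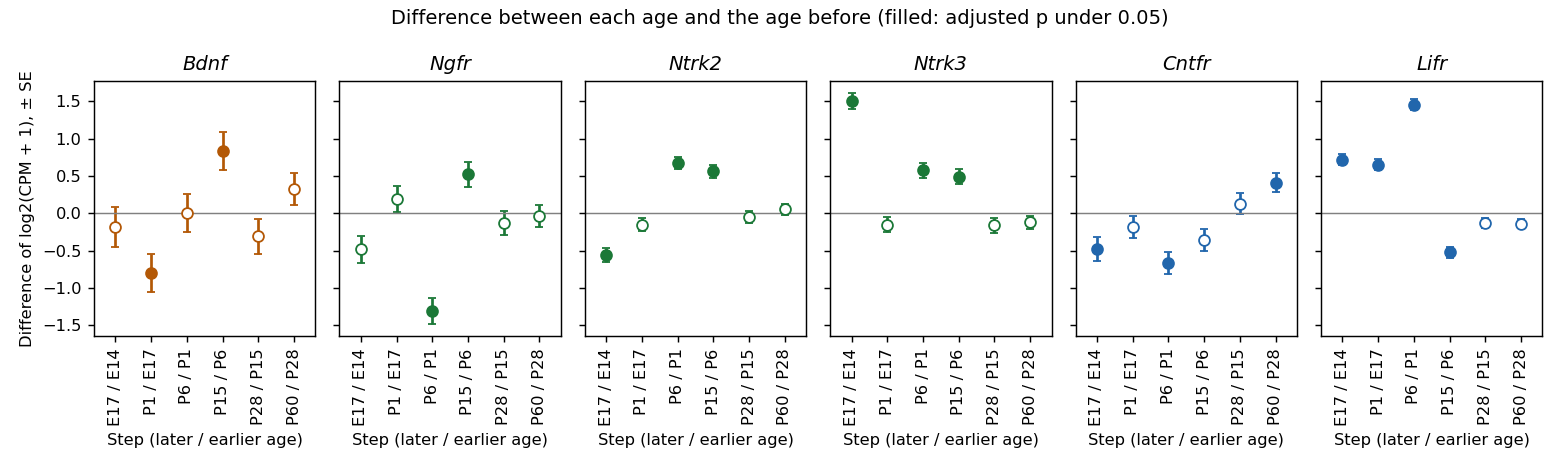
Difference in log2(CPM + 1) between each age and the age before for the 6 genes that passed the filter, ± SE, with filled symbols at an adjusted p under 0.05 in limma. The steps from P1 to P6 and from P6 to P15 each hold 5 filled symbols, and the step from P15 to P28 holds none.

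By step, E17 differed from E14 in 4 of the 6 genes, 2 higher and 2 lower, where 10.6% of all features were called, 7.56% higher and 3.02% lower. P1 differed from E17 in 2 of 6, 1 each way, against 9.21% of features, 5.77% higher and 3.43% lower. P6 differed from P1 in 5 of 6, 3 higher and 2 lower, against 38.3%, 18.0% higher and 20.4% lower. P15 differed from P6 in 5 of 6, 4 higher and 1 lower, against 33.4%, 14.4% higher and 19.0% lower. From P15 to P28 limma called 0 of 6, against 2.72% of features, 1.14% higher and 1.58% lower. At an unadjusted p under 0.05 that step held 1 gene in limma, Lifr, and 0 in edgeR, which also called 0 after adjustment.

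Bdnf, the ligand gene for TrkB (Gene ID 12064, chr2:109674700-109727007, plus strand), was low, with its lowest means at P1 and P6. Its libraries held 8.10, 6.86 and 7.05 CPM at E14, 6.65, 8.03 and 4.66 CPM at E17, and 2.45, 3.53, 4.86 and 2.37 CPM at P1. The level at P6 was 4.24, 2.38 and 3.17 CPM. It then stood at 7.90, 6.98, 7.79 and 3.99 CPM at P15, 5.20, 4.77, 5.01 and 5.15 CPM at P28, and 3.64 to 10.4 CPM with a median of 6.85 CPM at P60. The embryonic and mature groups overlapped, and their log2 difference of -0.16 (SE 0.16) had an adjusted p of 0.37 in limma. Across the 7 ages the F test passed at an adjusted p of 0.00072. The step from E17 to P1, at -0.80, passed at 0.038 and the step from P6 to P15, at 0.83, at 0.010 in limma. Between ages further apart, P1 and P6 were each below E14 by a log2 difference of -0.99 (adjusted p 0.0029 and 0.0025, limma). P28 did not differ from P1 (adjusted p 0.051) or P6 (0.10, limma).

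Both Bdnf steps rested on few libraries. The first lost its call without any one of E17 replicates 1 and 2 and P1 replicates 1, 2 and 4 (adjusted p 0.056 to 0.22), and the second without P6 replicate 2 (0.68, adjusted p 0.078, limma). The 20 to 91 reads per library limit its precision, and 14.4% of its exon bases lie opposite an annotated antisense gene, Gm45346, whose reads cannot be told apart because use of strand in counting is not given in the sources used here. Its closest features in course were Snap23, Tra2a and A230061C15Rik, at a Pearson r of 0.787, 0.725 and 0.724.

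Ntf3, the gene for NT-3 (Gene ID 18205, chr6:126101412-126166910, minus strand), was detected in every embryonic library, and at no later age in all libraries. It had 10, 5 and 8 reads at E14 and 5, 3 and 6 reads at E17. At P1 it had 0, 2, 3 and 0 reads, at P6 0, 3 and 1, and at P15 1, 1, 4 and 0. Of the 4 libraries at P28, 1 held 1 read, and of the 6 at P60, 1 held 5 reads and the others none. In sum these were 37 reads over the 6 embryonic libraries and 12 over the 14 mature ones, 9 of which had none. The mean was 0.628 ± 0.261 CPM (SD, n = 6) in embryonic and 0.108 ± 0.197 CPM (SD, n = 14) in mature retina. An exact permutation test over the libraries (two-sided, 38760 regroupings) gave a log2(CPM + 1) difference of -0.56 with p = 0.000258, or 0.00052 adjusted over Ntf3 and Lif.

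Lif (Gene ID 16878, chr11:4257557-4272514, plus strand), the cytokine gene whose receptor holds LIFR, had the reverse pattern at the same low level. It had 0 reads in all 3 E14 libraries, where 3 reads over the group would be 0.104 CPM, and 2, 3 and 2 reads at E17. At P1 it had 0, 2, 5 and 2 reads, at P6 1, 2 and 4, at P15 3, 4, 5 and 5, and at P28 4, 4, 3 and 7. At P60 it ran from 0 to 10 reads. Embryonic retina held 7 reads in all and mature retina 60, with means of 0.113 ± 0.125 CPM (SD, n = 6) and 0.545 ± 0.289 CPM (SD, n = 14). The log2(CPM + 1) difference was 0.46, with p = 0.0019 before and after adjustment (exact permutation test, two-sided). Single ages of Ntf3 and Lif cannot be ordered at these counts, and intervals and limits on counts cover counting error only. The features most like each in course had a Pearson r of at most 0.785 for Ntf3 (Etl4, then Filip1 and 3632451O06Rik) and 0.759 for Lif (Gm38529, then Gm12709 and C230013L11Rik).

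Per kilobase of annotated exon, the order of the genes changed with age. At E14 Cntfr led at 26.4 and Ngfr at 23.8 CPM per kilobase, followed by Ntrk2 at 5.27, Lifr at 3.32, Bdnf at 1.18, Ntrk3 at 0.540 and Ntf3 at 0.461. At P6 Lifr led at 24.0 CPM per kilobase, with Cntfr at 10.2 and Ngfr at 7.63. At P60 Lifr was at 13.8, Cntfr at 11.9, Ngfr at 9.89, Ntrk2 at 7.60, Ntrk3 at 2.47, Bdnf at 1.10, Lif at 0.116 and Ntf3 at 0.0596 CPM per kilobase. These values divide by all annotated exon bases of a gene (30.2 kilobases for Ntrk3, 1.71 for Ntf3), so that genes with long alternative exons are understated.

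Ratios within a library depend little on its scaling where both genes lie far above the pseudocount, and 5 were compared between mature and embryonic retina as log2 of (CPM + 1), by exact permutation tests over libraries with adjustment over the 5. The ratio of Cntfr to Lifr went from 1.02 ± 0.064 (SD, n = 3) at E14 to -3.14 ± 0.057 (SD, n = 3) at P6 and -2.16 ± 0.42 (SD, n = 6) at P60. Its mature minus embryonic difference was -2.97. The ratio of Ntrk2 to Ngfr differed by 1.74, from 0.27 ± 0.12 (SD, n = 6) to 2.01 ± 0.28 (SD, n = 14), and its change lay between P1 (-0.11) and P6 (1.88). The ratio of Lifr to Il6st differed by 0.86 and was highest at P6, at 1.98. For each of these 3 ratios the exact permutation p was 2.58e-05, the smallest that 38760 regroupings can give, or 4.3e-05 adjusted. The regroupings treat libraries of different ages within a stage as alike, although the ratios differed between those ages.

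The ratio of Ntrk2 to Ntrk3 was set apart by one age. It was 2.58 ± 0.16 (SD, n = 3) at E14 and 0.52 ± 0.17 (SD, n = 3) at E17, and it stayed between 0.51 and 0.96 as a mean from P1 to P60. The mature minus embryonic difference of -0.71 had an adjusted p of 0.022 in the exact permutation test, and 0.059 to 0.062 without any one E14 library. The ratio of Bdnf to Ntf3 differed by 0.41 (adjusted p 0.023, exact permutation test), and by 0.32 to 0.40 with an adjusted p of 0.059 to 0.080 without E14 replicate 1 or 3 or E17 replicate 3. Since Ntf3 is at or near 0, that ratio depends on the scaling and on the pseudocount, and with 0.1 in place of 1 the difference was 1.96.

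**Figure D3:**
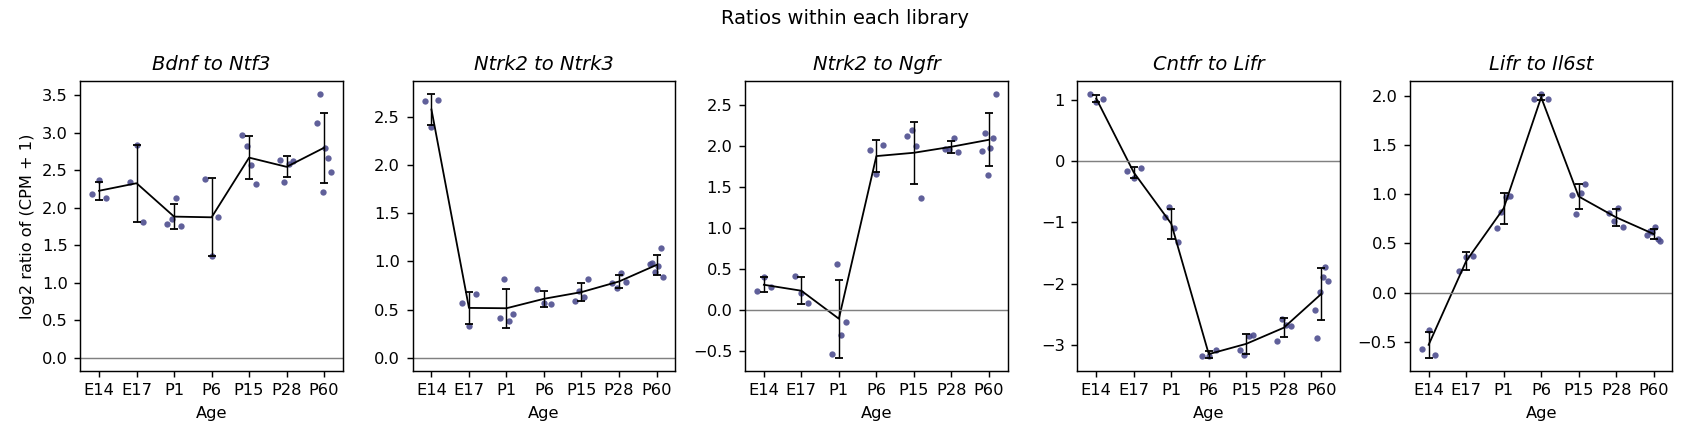
Ratios between genes within each library, as log2 of (CPM + 1), by age, with one dot per library and the mean ± SD in black. Cntfr to Lifr goes from a mean of 1.02 at E14 to -3.14 at P6, Ntrk2 to Ngfr has means of -0.11 to 0.31 up to P1 and of 1.88 to 2.08 from P6, and Ntrk2 to Ntrk3 is at a mean of 2.58 at E14 and no higher than 1.14 in any later library.

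The partners of these receptors were described from lists that were compiled with earlier results of these data known. Of 29 genes for neurotrophin partners (processing enzymes, sorting receptors, adaptors and p75 partners), 26 were in the table and all were tested. There were 23 called between mature and embryonic retina, 6 higher and 17 lower, against 75.4% of all features, with a median log2 difference of -0.53 against -0.06 over all features. The largest rises were of Pcsk6, a proprotein convertase, at 2.16 (3.70 CPM at E14 and 21.7 CPM at P60) and of Sorcs3, a sorting receptor related to sortilin, at 1.86. The largest falls were of Sh2b2, an adaptor of receptor tyrosine kinases, at -2.23 and Arhgdia, an inhibitor of small GTPases that binds p75, at -1.90 (142 CPM at E14 and 32.1 CPM at P60). Sort1, the p75 partner sortilin that binds pro-neurotrophins, was lower by a log2 difference of -0.53 (adjusted p 1.2e-10, limma). Ntf5 was not analysed here.

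Of 14 genes of the IL-6 family, 10 were in the table and 6 passed the filter, of which 3 were called, against 75.4% of all features, and all 3 rose. Il6st, the gp130 chain, was at a mean of 52.0 CPM at E14, 64.8 CPM at P6, 91.1 CPM at P15 and 97.9 CPM at P60, a mature minus embryonic log2 difference of 0.92 (SE 0.054, adjusted p 2.9e-16, limma). Osmr, the oncostatin M receptor subunit that also pairs with gp130, went from 1 to 7 reads per embryonic library to 48 to 87 reads per mature library, a difference of 2.74. It held at most 0.618 CPM in any embryonic library and passed the filter only through later libraries, which favoured the call of a rise. Il11ra1, the IL-11 receptor subunit, differed by 1.46. The ligands Cntf and Clcf1 did not pass, at 0.08 and -0.12, with means of 1.43 to 2.39 CPM and 1.99 to 4.66 CPM over the 7 ages.

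The JAK-STAT list held 22 genes, of which 20 were tested and 18 called, 13 higher and 5 lower in mature retina, against 75.4% of all features, with a median log2 difference of 0.55 against -0.06 over all features. Stat3, the transcription factor downstream of gp130, was at a mean of 13.7 CPM at E14, 35.5 CPM at P6 and 47.9 CPM at P60, and mature retina exceeded embryonic retina by 1.52 (SE 0.071, adjusted p 9.5e-19, limma). Pias3, an inhibitor of STAT3 that also acts in photoreceptors, differed by 1.64 and peaked at P6 at 119.6 CPM, the age of the Lifr peak. Jak1 differed by 0.58. Stat5a, among the 13 higher, held at most 0.932 CPM in any embryonic library and passed the filter only through later libraries. The largest falls were of Socs3, the feedback inhibitor of gp130 signaling, at -1.83 (adjusted p 4.0e-11, limma) and Socs6 at -1.45. Socs3 went from 8.38 ± 0.77 CPM (SD, n = 4) at P1 to 2.19 ± 0.77 CPM (SD, n = 3) at P6, a log2 difference of -1.58 (adjusted p 1.4e-05, limma), across the step where Lifr rose by 1.45. This step called 38.3% of all features, and a link of Socs3 or Pias3 to Lifr was not tested.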

How the data were processed

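Total RNA from dissected whole retinas was made into libraries with the SMARTer total RNA kit and read from 1 end on an Illumina HiSeq sequencer, and the authors aligned the reads to GRCm38 (mm10) with STAR. The authors deposited 1 table of CPM values, the reads of each feature scaled to a fixed library total, for 38168 features in 27 libraries. The annotation and the use of strand in counting are not given in the sources used here. Within a library the values rose in equal steps of 1 read, and all of them (100%, tolerance 0.02 of a read) were whole reads, with totals of 7077781 to 11332323 and a median of 7969873. In E14 replicate 1 an automatic test could not judge the step, so the count test was also run without it.

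Libraries were grouped by the age in their labels. Values were transformed to log2(CPM + 1), which understates the change of low genes, and the 31760 features that reached 1 CPM in 3 or more libraries entered the tests. The model was limma 3.58.1 (R 4.3.3, trend option) over all 27 libraries, one coefficient per age, with two-sided p-values adjusted by Benjamini-Hochberg across the whole table, and a feature was called at an adjusted p under 0.05. The contrasts set the mean of the 3 mature ages, P15 to P60, against that of both embryonic ages, and each age against the one before, with an F test over the 7 ages, and every pair of ages for the order of a gene's levels. Ratios, and Ntf3 and Lif, which were below the filter, were compared by exact permutation tests over libraries. Scripts were tested on simulated data with known changes. In the fits, p-values measure the spread between libraries of the same age. The permutation tests regroup libraries across the ages of a stage, so differences between those ages enter their p-values too. The rest ran in Python 3.11.15 (scipy 1.17.1, numpy 2.4.6).

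The 8 genes and all lists were chosen with earlier results of these data known. Besides the 8 genes, the text names Ntf5, Sort1, Il6st, Cntf, Clcf1, Osmr, Jak1, Stat3, Socs3 and Gfap, the 2 called genes that rose most and the 2 that fell most in each of 5 lists (neurotrophin partners, IL-6 family, JAK-STAT signaling, STAT3 response and activity-dependent genes), and the 3 features with a Gene ID and a mean of at least 10 CPM most correlated with each gene. Some genes that this rule names are not reported here. Il11ra1 was the other called gene of the IL-6 list. Edn2, Lcn2, Serpina3n, Egr3 and Stat5a are named for how they passed the filter. Gene positions and exon lengths are from the GENCODE annotation of GRCm38, and promoters from RefSeq. Alternatives were edgeR 4.0.16 (quasi-likelihood test, TMM) on the whole reads, a replicate block, median-of-ratios scaling, a pseudocount of 0.1, a mean of at least 10 CPM or no filter, fitting the compared ages by themselves, the sum of the rows of a symbol, and leaving out each library. The edgeR fit without E14 replicate 1 and the tests of Ntf3 and Lif were added after seeing the data. Pairs of ages that do not follow each other in time were fitted in the main limma model only.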

Additional observations from a re-analysis of the deposited data

Results flagged for a closer look

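Of 32 groups of 4 to 6 libraries tested (8 genes at the ages with at least 4 libraries), 4 had a library far from the others of its age by Dixon's test, where chance flags about 1 in 20 groups. Ntf3 stood at 0.140 CPM (1 read) in P28 replicate 2 with the other 3 libraries at 0, and at 0.612 CPM (5 reads) in P60 replicate 6 with the other 5 at 0. Where all other libraries hold 0, any read is far from them by this test, so the Ntf3 values say little. Ntrk3 was highest in P28 replicate 2, at 88.3 CPM against 77.7 to 79.3 CPM. Ngfr was lowest in P60 replicate 6, at 24.5 CPM, with the next library at 34.1 CPM. What sets these libraries apart was not tested.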

How the results depend on the processing

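Most calls kept their direction and side of the threshold under the alternatives. The 5 genes called between mature and embryonic retina were 5 in each of the 27 fits that left out 1 library, and so were the 5 from P1 to P6. From E17 to P1 the count of 2 was 1 with a mean of at least 10 CPM, where Bdnf is not tested, and 1 with the replicate block (Bdnf, adjusted p 0.074, limma), and 1 to 2 on leaving out a library. From P28 to P60 the count of 1 was 0 with the replicate block (Cntfr, adjusted p 0.23, limma), 0 in the fit of the 2 ages alone, and 0 to 2 on leaving out a library, where the 2 came without P60 replicate 2 and added Lifr (-0.17, adjusted p 0.037, limma). Leaving out a library gave 3 to 5 genes from E14 to E17 and 4 to 6 from P6 to P15. It moved the log2 ratio difference of Bdnf to Ntf3 between 0.32 and 0.53 (adjusted p 0.0070 to 0.080, exact permutation test) and that of Ntrk2 to Ntrk3 between -0.96 and -0.49 (0.010 to 0.062). Differences that changed sign were all near 0 and not called: Bdnf from P1 to P6 was -0.081 with the replicate block, -0.0918 and -0.10 without P1 replicates 1 and 4 and -0.16 without P6 replicate 1, and ranged up to 0.16 on leaving out a library. Ntrk2 from P28 to P60 was -0.0043 with the replicate block, and Ngfr from P15 to P28 was 0.046 without P15 replicate 4 and as low as -0.21 without another library. Ngfr from P28 to P60 was 0.035 with median-of-ratios scaling, 0.055 with the replicate block, 0.038 in edgeR, 0.037 in edgeR without E14 replicate 1 and 0.056 without P60 replicate 6, against -0.067 at the lowest on leaving out a library. The cause of these shifts was not tested. Replicate numbers shared between ages did not pair libraries: of 69 same-numbered pairs, 3 had deviations correlated above 0.1, with a median r of -0.0018 against 0.0042 for other pairs, and the replicate block changed no other count of the 8 genes by over 1.5 times. edgeR on the recovered reads called 24062 of 31760 features between mature and embryonic retina, against 23951 in limma. Fits of the compared ages alone called 7705 features at E17 over E14 (3359 with all ages), 5298 at P1 over E17 (2924), 1655 at P28 over P15 (864) and 23 at P60 over P28 (4100), where the replicate block gave 1029. With a mean of at least 10 CPM, where 13492 features are tested, 11370 were called between mature and embryonic retina, 7398 at P6 over P1, 6879 at P15 over P6 and 12569 over the ages. Depth limits Ntf3 and Lif, at 0 to 10 reads per library.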

Other observations

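Genes that STAT3 is known to induce moved in both directions. Of 14 on the list, 13 were tested and 11 were called between mature and embryonic retina, 8 higher and 3 lower, against 75.4% of all features. The median log2 difference was 0.92 against -0.06 over all features. Of the 8, Edn2, Lcn2 and Serpina3n passed the filter only through mature libraries, so only a rise could be called. They held at most 0.104 CPM in any embryonic library. Osmr held at most 0.618 CPM there and passed the filter only through later libraries. The median is the value of Lcn2, which held 0.406 to 1.55 CPM in mature libraries. The largest rises were of Osmr at 2.74 and Fgf2, a growth factor, at 2.697 (3.41 CPM at E17, 4.87 CPM at P6 and 28.5 CPM at P15). Gfap, the filament protein of astrocytes and of Müller glia after injury, rose by 2.44 and is also one of the astrocyte markers, whose sum was highest at P1 and P6 (112 to 142 CPM). The largest falls were of Pim1, a kinase gene, at -2.99, from a mean of 18.1 CPM at P1 to 1.78 CPM at P6, and Socs3 at -1.83. The values of Osmr and Socs3 are those of the lists described above, since the lists share genes.

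Genes induced by neuronal activity, among which Bdnf is often counted, were split. Of 18, 17 were tested and 14 called, 8 higher and 6 lower, against 75.4% of all features, with a median of -0.10 against -0.06 over all features. Of the 8, Fos and Egr3 held at most 0.947 and 0.500 CPM in any embryonic library. They passed the filter only through later libraries, which favoured the call of a rise. Egr1 rose by 3.93, from a mean of 2.40 CPM at P1 to 24.1 CPM at P6, and Fos by 3.36, from 2.90 CPM at P6 to 12.4 CPM at P15. Junb fell by 1.15 and Egr2 by 0.99. Bdnf itself differed by -0.16 in the same comparison and did not pass.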
